A study of Caenorhabditis elegans with 16 samples.

Results

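The 9 genes described here encode the asparagine synthetases and the core enzymes of the methionine cycle in *C. elegans*: *asns-1*, *asns-2*, *sams-1*, *sams-3*, *sams-4*, *ahcy-1*, *metr-1*, *mel-32* and *cbs-1*. They were chosen by name and are 9 of the 23758 genes in RNA-seq count tables of whole animals collected on day 1 of adulthood at 20 °C. All 9 had reads in each of the 16 libraries and passed the filter on low counts in every comparison. There were 4 genotypes with 4 libraries each, which the study calls biological replicates. Wildtype worms were the N2 strain. *hsf-1* OE worms carried the transgene array *uthIs235*, where *hsf-1* is expressed from the promoter of *sur-5*. *hsf-1* is the gene of the heat shock transcription factor, and the array also holds a tdTomato reporter under the *myo-2* promoter. *ubql-1(tm1574)* worms carried a deletion in the gene of the ubiquitin shuttle protein ubiquilin. The 4th genotype, *hsf-1* OE; *ubql-1(tm1574)*, carried both and is called the double strain below. All worms were fed *Escherichia coli* OP50, and each overexpression genotype is 1 strain.

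The methionine cycle turns methionine into S-adenosylmethionine (SAM), the methyl donor of most methylation reactions, and then returns the homocysteine that is left to methionine or sends it to cysteine. The methyl group for that return comes from the folate cycle, which is charged by the conversion of serine to glycine. Asparagine synthetase makes asparagine from aspartate with the amide group of glutamine, and in many animals its gene responds to amino acid shortage and to stress. In *C. elegans*, loss of the SAM synthetase gene *sams-1* is known to alter fat storage and lifespan.

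Library totals ran from 18202151 to 30524762 counts with a median of 22241519. As a check of the strains, *ubql-1* had 1272 to 1938 normalised counts in the 8 libraries labelled with the deletion and 3578 to 4212 in the other 8. The targeted gene *hsf-1* had 2318 to 2608 normalised counts in wildtype and 1673 to 2496 under the *hsf-1* OE label, where its mRNA was not higher (log2 fold change -0.13, SE 0.13, adjusted p = 0.386, edgeR). In the double strain it was 2334 to 3136, against 2251 to 2365 in *ubql-1(tm1574)* (log2 fold change 0.36, SE 0.09, adjusted p = 0.0058, edgeR). Against wildtype the double strain was at 0.25 (SE 0.10, adjusted p = 0.0421, edgeR). Against *hsf-1* OE it was at 0.48 (SE 0.15, adjusted p = 0.255, edgeR). *hsf-1* OE therefore stands below for the label of a library. The makeup of the animals also differed by label. Summed CPM (counts scaled to library size) of 12 oocyte and eggshell markers was 7550 to 10500 in wildtype, 6950 to 8100 in *ubql-1(tm1574)*, 2950 to 5380 in libraries labelled *hsf-1* OE and 3670 to 5420 in the double strain. The sum of 12 moulting and larval cuticle markers was 47.4 to 69.5, 80.3 to 193, 94.6 to 1290 and 216 to 590 CPM in the same order. In whole animals, fewer cells of a type and less RNA per cell cannot be told apart.

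Listed counts were normalised by TMM across the 16 libraries. A gene was called at a Benjamini-Hochberg adjusted p under 0.05 in edgeR's quasi-likelihood test. Each comparison of genotypes was scaled over its own 8 libraries, so its fold changes can differ in size from the listed counts. Between *hsf-1* OE and wildtype, 4 of the 9 genes were called: *asns-1*, *asns-2* and *cbs-1* rose and *sams-3* fell. Of all genes tested, 67.3% were called there, 38.6% as higher and 28.7% as lower, so 4 of 9 lies below the share of all genes. *asns-1* and *asns-2* were also higher by a log2 fold change over 1, as were 22.6% of all genes tested. In *ubql-1(tm1574)* against wildtype, 0 of the 9 were called, against 8.31% of all genes tested; 2 had an unadjusted p under 0.05 in edgeR, and DESeq2 called 1. That share of all genes was 0.721% and 0.725% without replicate 3 or 4 of *ubql-1(tm1574)* and 13.6% without wildtype replicate 4. Between the double strain and *hsf-1* OE, 1 of the 9 was called, *asns-2*, as lower, where 0.932% of all genes were called and 0.463% were lower. With the replicate number as a block, 6.39% of all genes were called there. Between the double strain and *ubql-1(tm1574)* the same 4 genes were called in the same directions as between *hsf-1* OE and wildtype, against 59.1% of all genes (31.5% higher and 27.7% lower). Only *asns-1* passed the fold threshold there, which 12.8% of all genes did as higher. Against wildtype, the double strain gave those 4 calls again, where 70.4% of all genes were called, 37.1% as higher and 33.3% as lower. Both asparagine synthetase genes passed the fold threshold in that comparison, as did 20.6% of all genes. Several of these comparisons share libraries and are not independent. In *hsf-1* OE against wildtype the split of 3 higher and 1 lower became 2 and 2 with RLE normalization or DESeq2, as *cbs-1* lost its call and *mel-32* gained one, and 6 and 1 with scaling to 3 housekeeping genes (*cdc-42*, *pmp-3*, *rpb-2*), which raised the median log2 fold change of all genes tested by 0.36. *sams-1*, *sams-4* and *ahcy-1* were the genes that housekeeping scaling added, at log2 fold changes of 0.32, 0.45 and 0.44.

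**Figure D1:**
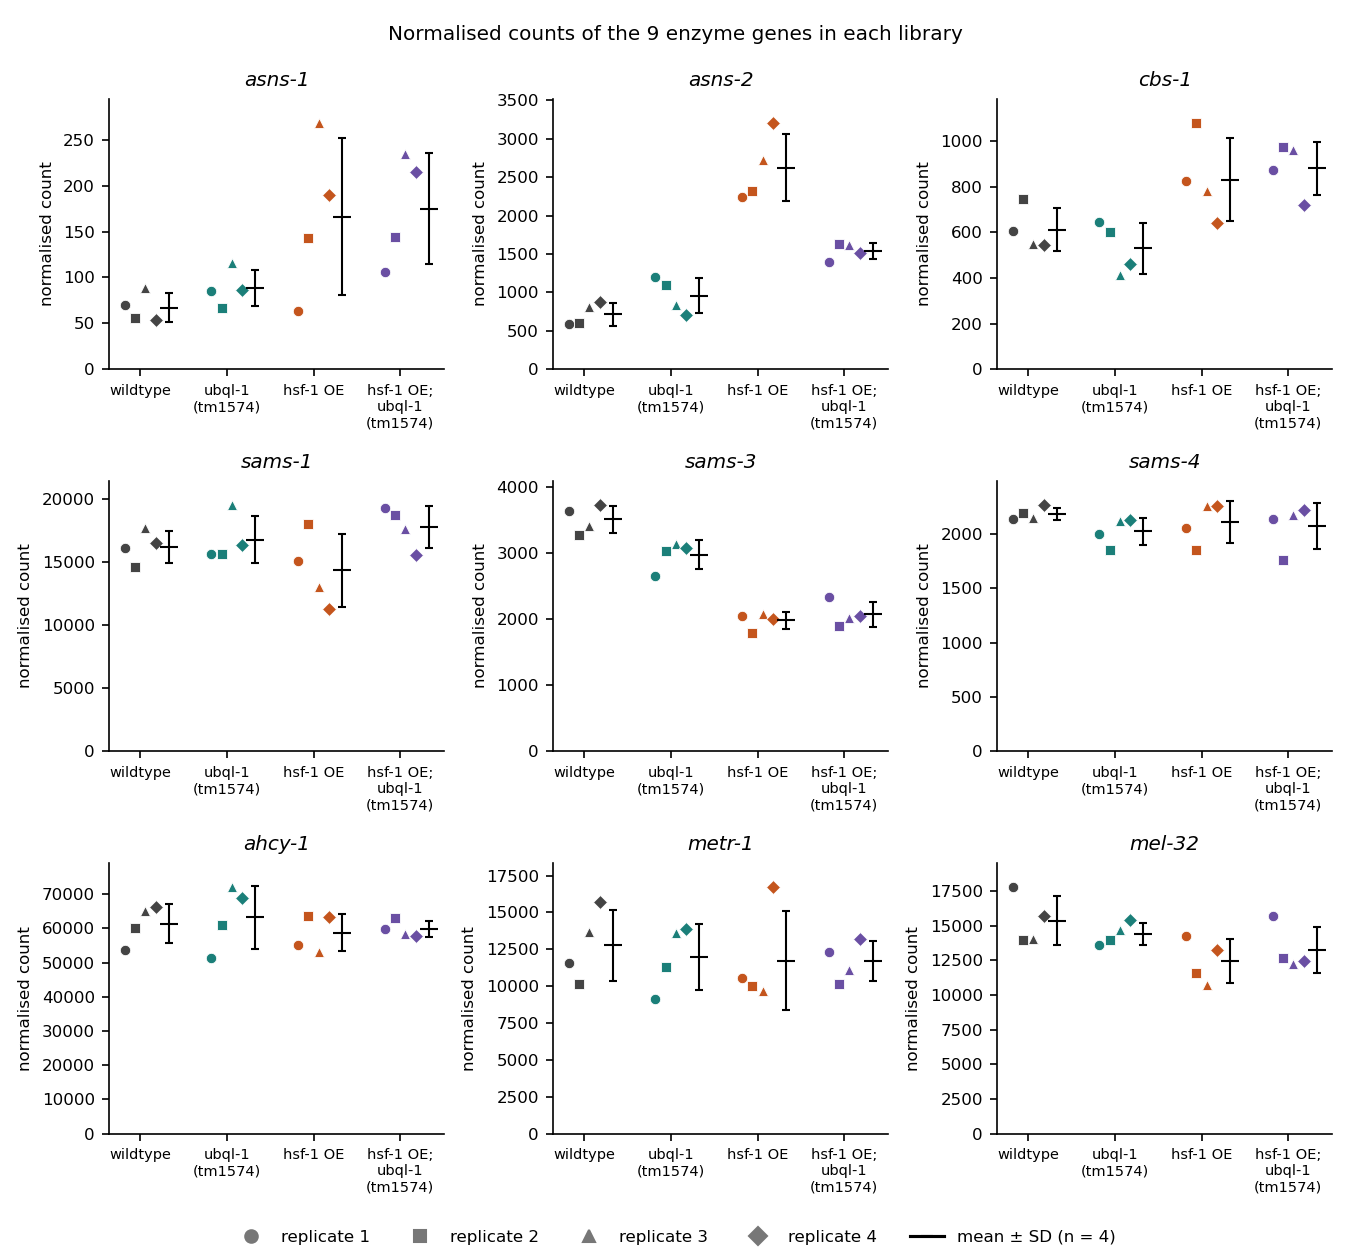
Normalised count (linear axis from 0) of each of the 9 genes in each of the 16 libraries, by genotype. Marker shapes stand for replicate numbers 1 to 4 and bars for the mean ± SD over 4 libraries. The 4 libraries labelled *hsf-1* OE lie above all others for *asns-2*, and *sams-3* is lower in all 8 libraries with the transgene label than in the other 8.

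*asns-2* (M02D8.4, chromosome X, 8748828 to 8750969, minus strand in WBcel235) encodes an asparagine synthetase and had the largest fold change of the 9 genes between *hsf-1* OE and wildtype. Its normalised counts were 584, 598, 812 and 869 in wildtype replicates 1 to 4. Replicates 1 to 4 labelled *hsf-1* OE had 2243, 2323, 2720.4 and 3201. The lowest *hsf-1* OE library was above the highest wildtype library by a wide margin. Of all genes tested, 67.3% were called in this comparison, and the share that separates without overlap was not computed. In these counts, ratios to the wildtype library of the same number were 3.84, 3.89, 3.35 and 3.68. The fit, scaled over its 8 libraries, gave a 4.06-fold rise in *hsf-1* OE (log2 fold change 2.02, SE 0.18, adjusted p = 6.35e-05, edgeR). In the fit of all 16 libraries the log2 fold change was 1.87. *asns-2* kept this call under every alternative tried, with log2 fold changes of 1.79 to 2.39.

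In *ubql-1(tm1574)*, *asns-2* had 1195, 1093, 838 and 702 normalised counts. The first 2 of these lay above all wildtype libraries and the other 2 within their range, so the groups overlapped. The log2 fold change against wildtype was 0.42 (SE 0.19, adjusted p = 0.15, edgeR), which was not called. Replicates 1 and 2 had ratios to the wildtype library of the same number of 2.05 and 1.83, replicate 3 had 1.03 and replicate 4 had 0.807.

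In the double strain, *asns-2* had 1397, 1624, 1617 and 1510.1 normalised counts in replicates 1 to 4. All 4 lay below the 4 labelled *hsf-1* OE and above the 4 of *ubql-1(tm1574)* and the 4 of wildtype. Its ratio to the *hsf-1* OE library of the same number was 0.623, 0.699, 0.594 and 0.472, lower in 4 of 4. The log2 fold change against *hsf-1* OE was -0.80 (SE 0.14, 95% interval -1.11 to -0.49, adjusted p = 0.0295, edgeR). With the replicate number as a block, which pairs the libraries of these strains, it was -0.79 (adjusted p = 0.00666, edgeR), in a fit that called 6.39% of all genes. The call was lost in 6 of 8 fits that left out a library, when replicate 2 or 3 of *hsf-1* OE or any of the 4 double-strain libraries was left out, with log2 fold changes of -0.90 to -0.67 and adjusted p of 0.0127 to 0.115 over the 8 fits.

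The fold change of *asns-2* under *hsf-1* OE was smaller in the deletion background. Against *ubql-1(tm1574)*, the double strain was 1.67-fold higher (log2 fold change 0.74, SE 0.15, adjusted p = 0.00194, edgeR), and against wildtype 2.17-fold higher (log2 fold change 1.12, SE 0.14, adjusted p = 0.000133, edgeR). The difference between the fold changes for the *hsf-1* OE label in the 2 backgrounds, tested as an interaction in a model of all 16 libraries, was -1.19 on the log2 scale (SE 0.24, 95% interval -1.69 to -0.69, adjusted p = 0.0304, edgeR). The interaction for *hsf-1* mRNA itself was 0.58 (SE 0.16, adjusted p = 0.0986, edgeR), and its part in the value of *asns-2* was not tested. *asns-2* was the only one of the 9 genes that edgeR called for the interaction, for which 0.658% of all genes were called and 0.46% were lower (called, 10.5% without *hsf-1* OE replicate 1). This call was lost in 11 of 16 fits that left out a library, with values of -1.31 to -1.06 and adjusted p of 0.0175 to 0.0925; the fits that kept it left out wildtype replicate 3 or 4, *ubql-1(tm1574)* replicate 4, or *hsf-1* OE replicate 1 or 2. With the replicate block it was -1.2 (adjusted p = 0.015, edgeR), in a fit that called 10.2% of all genes.

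*asns-1* (F25G6.6, chromosome V, 8546288 to 8548879, plus strand), the other asparagine synthetase gene, was the least abundant of the 9. Its normalised counts were 69.7, 56.1, 88.6 and 53.9 in wildtype and 85.2, 67.1, 115 and 85.9 in *ubql-1(tm1574)*. They were 64, 143, 268 and 189.8 in libraries labelled *hsf-1* OE, where replicate 1 lay within the wildtype range and the other 3 above it. The double strain had 106, 144, 234.8 and 215, all above wildtype, with replicate 1 again the lowest.

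*asns-1* was 2.78-fold higher in *hsf-1* OE than in wildtype (log2 fold change 1.47, SE 0.41, adjusted p = 0.0107, edgeR), with log2 fold changes of 1.01 to 1.61 when single libraries were left out and 1.31 in the fit of all 16. It was 2.06-fold higher in the double strain than in *ubql-1(tm1574)* (log2 fold change 1.04, SE 0.26, adjusted p = 0.00559, edgeR). The double strain and *hsf-1* OE differed by a log2 value of 0.05 with a 95% interval of -0.88 to 0.97, and the interaction was -0.33 with an interval of -1.37 to 0.71, neither called (edgeR, adjusted p = 0.984 and 0.747). These intervals include values as large as those of *asns-2*. Summed moulting markers, given as CPM per library, were also lowest in replicate 1 of both transgene-labelled groups, at 94.6, 257, 459 and 1290 in *hsf-1* OE replicates 1 to 4 and 216, 275, 590 and 532 in the double strain. Of the 12 markers 11 were higher in *hsf-1* OE than in wildtype and 0 lower, beside 38.6% higher of all genes tested. None of the 12 was at 0 throughout a genotype. Their part in the result was not tested.

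Counts divided by the listed gene length and the TMM-scaled library size (RPKM, computed here) allow levels to be compared between genes. *asns-2* was 8.48 to 16.3 times the RPKM of *asns-1* in wildtype and 10.3 to 35.5 times in *hsf-1* OE, and these ratios overlapped (exact permutation test, two-sided, p = 0.11, adjusted over 5 comparisons 0.29, n = 4 per group, smallest possible p 0.029). In wildtype, *asns-2* was the 7th of the 9 genes by RPKM (mean 15.1, range 12.3 to 18.4), next to *cbs-1* (mean 11.3, highest 13.7), which it overlapped. In *hsf-1* OE it was the 5th (47.4 to 67.6), above all 4 values of *sams-3* (37.7 to 43.5) and overlapping *sams-4* (39.6 to 48.3).

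**Figure D2:**
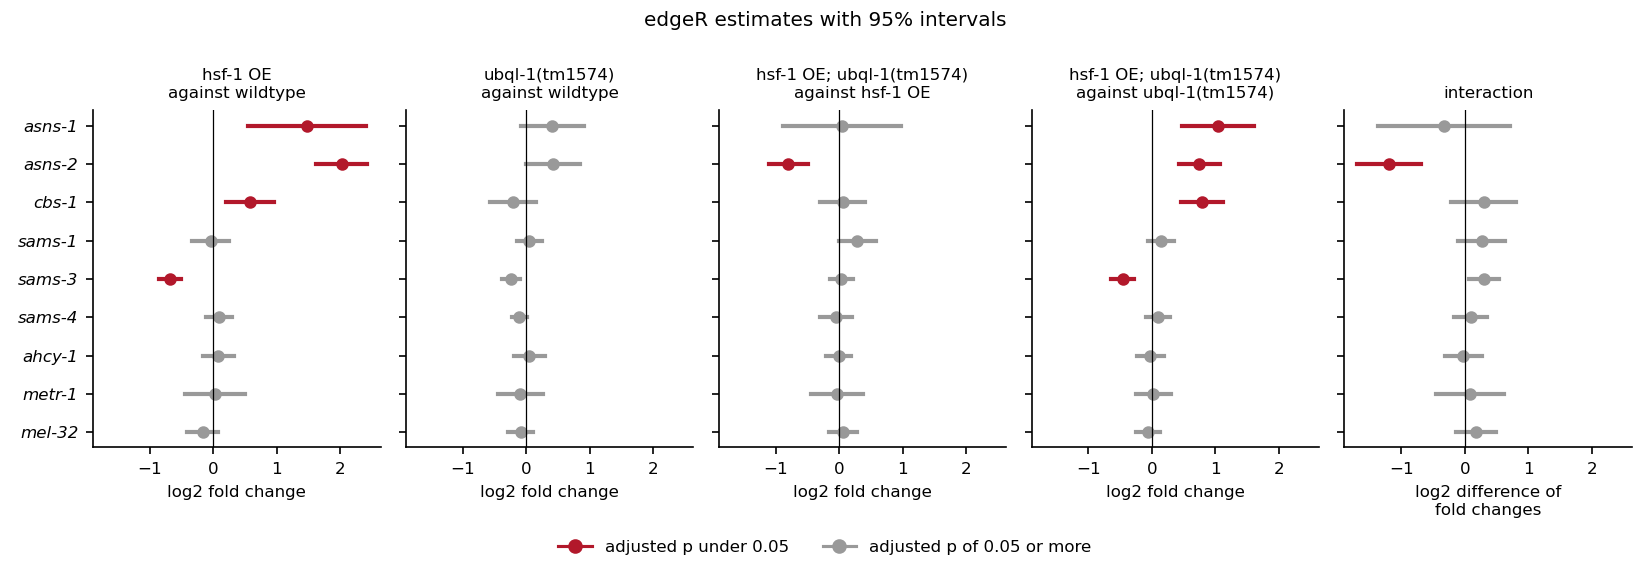
edgeR log2 fold changes (points) with 95% intervals (lines) of the 9 genes in 4 comparisons, and, at the right, the log2 difference of fold changes from the interaction model. Values past an adjusted p of 0.05 are red: *asns-2* is at 2.02 for *hsf-1* OE, -0.80 for the double strain against *hsf-1* OE, and -1.19 for the interaction.

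SAM synthetase joins methionine and ATP into SAM, and 3 of its genes are among the 9. *sams-3* (C06E7.1) was the one that fell. The files place it on chromosome IV at 5848655 to 5849683 on the plus strand, and *sams-4* (C06E7.3) at 5843982 to 5846369 on the minus strand. *sams-3* and *sams-4* are close paralogs, so reads may have been lost or split between them by the counting, and their values are uncertain to that extent. The WBcel235 annotation has a gene on the other strand, C06E7.4, which shares 18 bases with the end of *sams-3*. It had 38.4 to 246 normalised counts, and whether counting used the strand is not stated.

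*sams-3* had 3267 to 3719 normalised counts in wildtype with a median of 3518, 2653 to 3138 in *ubql-1(tm1574)* with a median of 3046, 1795 to 2070 in libraries labelled *hsf-1* OE with a median of 2027 and 1897 to 2330 in the double strain with a median of 2028. Both transgene-labelled groups lay wholly below the other 2, and overlapped each other. The share of all genes whose groups separate in this way was not computed. *sams-3* was 1.61-fold lower in *hsf-1* OE than in wildtype (log2 fold change -0.69, SE 0.08, adjusted p = 0.000164, edgeR). In the fit of all 16 libraries its log2 fold change was -0.825. In the double strain the log2 fold change was -0.46 against *ubql-1(tm1574)* (SE 0.08, adjusted p = 0.00122, edgeR) and -0.74 against wildtype (SE 0.08, adjusted p = 8.87e-05, edgeR). With housekeeping scaling the value in *hsf-1* OE was -0.32 and that of the double strain against wildtype -0.35, both still called, while the value against *ubql-1(tm1574)* was -0.18 and not called (adjusted p = 0.127, edgeR).

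Between *ubql-1(tm1574)* and wildtype, *sams-3* also had no overlapping libraries, with a log2 fold change of -0.24 (SE 0.06) that lay next to the threshold (adjusted p = 0.0515, edgeR). The replicate block, whose numbers pair these libraries, called it (adjusted p = 0.0272, edgeR, with 30.2% of all genes called), as did DESeq2 (adjusted p = 0.0109, with 18% called). Over these alternatives the adjusted p ranged from 0.0109 to 0.171. The interaction for *sams-3* was 0.30 (95% interval 0.06 to 0.54, adjusted p = 0.168, edgeR), and DESeq2 called it at 0.37 (adjusted p = 0.0276).

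Summed CPM of 10 germline nuclei markers moved with *sams-3* across the genotypes, from 2780 to 3050 in wildtype and 2500 to 2730 in *ubql-1(tm1574)* to 1400 to 2050 in *hsf-1* OE and 1650 to 2050 in the double strain. Of those 10 markers 9 were lower in *hsf-1* OE and 0 higher, and of the 12 oocyte and eggshell markers 10 were lower and 0 higher. Sperm markers went the other way, with 11 of 12 higher in *hsf-1* OE and 0 lower. Their summed CPM was 393 to 919 in wildtype, 846 to 1270 in *ubql-1(tm1574)*, 1070 to 1560 in *hsf-1* OE and 1010 to 1140 in the double strain. In *hsf-1* OE against wildtype, 8 of 12 intestine, 9 of 10 body wall muscle and 6 of 9 neuron markers were higher, and 1 neuron marker was lower. Of all genes tested, 38.6% were higher and 28.7% lower. The part of germline content in the level of *sams-3* was not tested.

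*sams-4* had 2141 to 2263 normalised counts in wildtype, 1853 to 2124 in *ubql-1(tm1574)*, 1853 to 2259 in *hsf-1* OE and 1764 to 2220.1 in the double strain. All 4 *ubql-1(tm1574)* libraries lay below wildtype, by a log2 fold change of -0.11 that was not called (SE 0.05, adjusted p = 0.176, edgeR). *sams-4* was called in none of the comparisons, with a log2 fold change of 0.09 in *hsf-1* OE (95% interval -0.12 to 0.29, adjusted p = 0.40, edgeR). The RPKM ratio of *sams-3* to *sams-4* was 1.47 to 1.67 in wildtype and 1.31 to 1.60 in *ubql-1(tm1574)*, and 0.871 to 0.979 in *hsf-1* OE and 0.903 to 1.07 in the double strain. The ratios did not overlap between *hsf-1* OE and wildtype or between the double strain and *ubql-1(tm1574)* (exact permutation tests, two-sided, p = 0.029 for each, the smallest that 4 against 4 allows; adjusted over the 5 comparisons of genotypes, 0.048 for each). The adjustment was made for this ratio alone and does not cover the other shares and ratios tested. This ratio does not depend on how libraries are scaled, and shows only that the neighbours changed unequally.

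Of these 3 SAM synthetase genes, *sams-1* (C49F5.1, chromosome X, 11965962 to 11968109, plus strand) supplied most mRNA per length, 71.1% to 82.6% of their summed RPKM in all 16 libraries. This sum leaves out *sams-5*, a further gene of the family. The normalised counts of *sams-1* were 14627 to 17728 in wildtype, 15616 to 19512 in *ubql-1(tm1574)*, 11315 to 18012 in *hsf-1* OE and 15569 to 19337 in the double strain, and all 4 ranges overlapped. In *hsf-1* OE against wildtype the log2 fold change of *sams-1* was -0.04 (95% interval -0.33 to 0.24, adjusted p = 0.776, edgeR). The share of *sams-3* in the 3 genes was 15.4% to 17.4% in wildtype and 8.74% to 13.5% in *hsf-1* OE, without overlap (exact permutation test, two-sided, p = 0.029, adjusted over 5 comparisons 0.048, n = 4 per group). That adjustment too was made for this share alone.

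**Figure D3:**
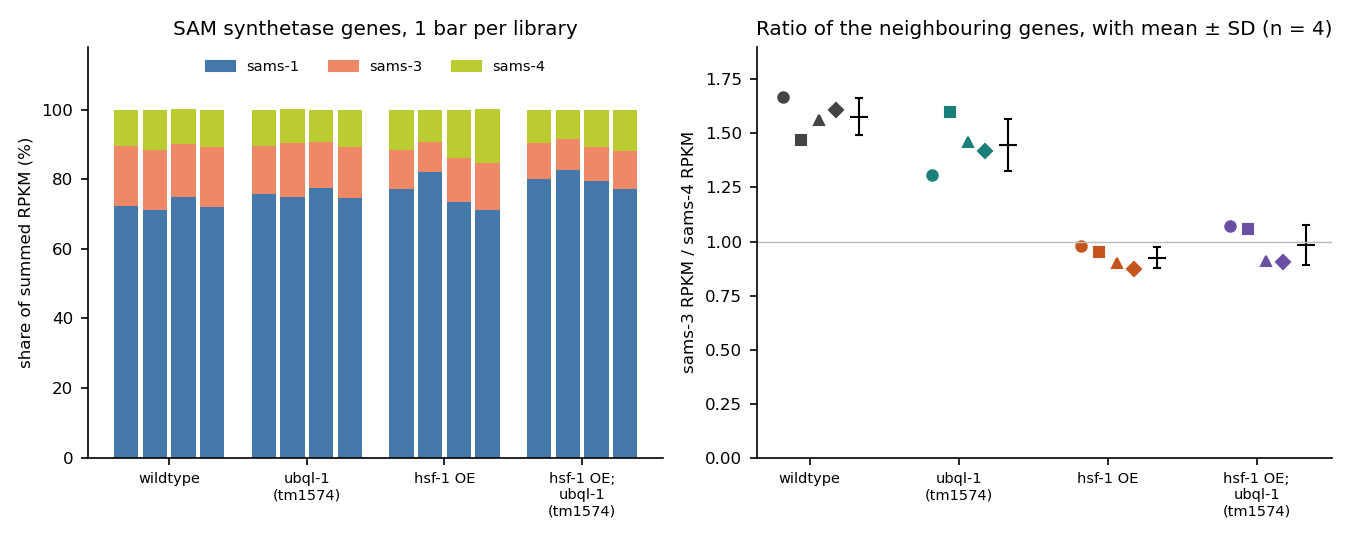
Left, share (%) of *sams-1*, *sams-3* and *sams-4* in their summed RPKM, 1 bar per library in replicate order. Right, RPKM ratio of *sams-3* to *sams-4* per library with mean ± SD (n = 4), with circle, square, triangle and diamond for replicates 1 to 4: the ratio is 1.31 or more in the 8 libraries without the transgene label and 1.07 or less in the other 8.

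*ahcy-1* (K02F2.2, chromosome I, 6836390 to 6838142, plus strand) encodes S-adenosylhomocysteine hydrolase, which clears the product of methylation reactions, and was the most abundant of the 9 per length (mean RPKM 1600 ± 149 in wildtype, SD, n = 4). Its normalised counts were 53810.1 to 66366 in wildtype, 51382 to 72002 in *ubql-1(tm1574)*, 53102 to 63517 in *hsf-1* OE and 57891 to 63067 in the double strain. The ranges overlapped throughout. Its log2 fold change in *hsf-1* OE was 0.08 (95% interval -0.16 to 0.32, adjusted p = 0.506, edgeR).

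*metr-1* (R03D7.1, chromosome II, 10926561 to 10931077, plus strand) encodes the vitamin B12 dependent methionine synthase, which returns homocysteine to methionine. Its normalised counts were 10172 to 15686 in wildtype, 9127 to 13867 in *ubql-1(tm1574)*, 9674 to 16697 in *hsf-1* OE and 10129.6 to 13203 in the double strain. It varied between libraries of 1 genotype more than it differed between genotypes. The largest absolute log2 fold change of this gene in the 5 comparisons was -0.11, in the double strain against wildtype (95% interval -0.41 to 0.19, adjusted p = 0.473, edgeR).

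*mel-32* (C05D11.11, chromosome III, 6440145 to 6442822, minus strand) encodes serine hydroxymethyltransferase, which feeds the folate cycle with one-carbon units from serine. It had 13935 to 17757 normalised counts in wildtype, 13623 to 15370.3 in *ubql-1(tm1574)*, 10703 to 14267 in *hsf-1* OE and 12216 to 15677 in the double strain. The *hsf-1* OE and wildtype ranges overlapped by a small stretch. The log2 fold change in *hsf-1* OE was -0.17 (95% interval -0.42 to 0.07, adjusted p = 0.188, edgeR), and RLE normalization moved it to -0.34 (adjusted p = 0.031, edgeR), which was called, as it was with DESeq2, in the fit of all 16 libraries and without *hsf-1* OE replicate 1 (-0.36, adjusted p = 0.0207, edgeR). Housekeeping scaling moved it to 0.19 with no call. In the double strain against wildtype it was -0.20 (SE 0.11, adjusted p = 0.114, edgeR), and the replicate block, whose numbers pair these libraries, called it (adjusted p = 0.0128, edgeR), as did the fit without double-strain replicate 1 (-0.29, adjusted p = 0.021, edgeR).

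*cbs-1* (ZC373.1, chromosome X, 10054279 to 10056212, plus strand) encodes cystathionine beta-synthase, which takes homocysteine out of the cycle towards cysteine. Its normalised counts were 607, 747, 550.3 and 544 in wildtype and 644, 599.5, 411 and 463 in *ubql-1(tm1574)*. *hsf-1* OE had 823, 1078, 781 and 641, and the double strain 871, 973, 961 and 721. Replicate 4 of *hsf-1* OE lay within the wildtype range and the other 3 above it, and no double-strain library overlapped *ubql-1(tm1574)*.

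In the listed counts, same-numbered ratios of *hsf-1* OE to wildtype were 1.36, 1.44, 1.42 and 1.18. *cbs-1* was 1.49-fold higher in *hsf-1* OE than in wildtype in the fit (log2 fold change 0.58, SE 0.17, adjusted p = 0.0124, edgeR). That call was lost with RLE normalization (log2 fold change 0.41, adjusted p = 0.0665, edgeR), with no filter on low counts, with DESeq2, and without replicate 1 or replicate 2 of *hsf-1* OE (log2 fold changes 0.47 and 0.32, adjusted p = 0.0517 and 0.10, edgeR). Against *ubql-1(tm1574)* the double strain was 1.73-fold higher (log2 fold change 0.79, SE 0.15, adjusted p = 0.00162, edgeR), a call kept under every alternative tried. The difference between the 2 fold changes, the interaction, was 0.29 (95% interval -0.21 to 0.80, adjusted p = 0.519, edgeR).

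The other genes of these pathways were taken from a list of 78, of which 76 passed the filter in the comparison of *hsf-1* OE with wildtype. There 23 were higher, 22 lower and 31 not called, and the median log2 fold change was -0.01, beside 0.08 for the 9 genes and 0.29 for all genes tested. The list thus had 45 of 76 called, against 67.3% of all genes tested, 38.6% as higher and 28.7% as lower. The split of the list rested on the scaling: with RLE normalization 11 were higher and 32 lower, and with housekeeping scaling 45 and 4. Of the genes named below, *sams-5*, *dhfr-1*, *tyms-1*, *mthf-1*, *mtrr-1*, *pmt-1*, *mett-10*, *gcn-2*, *atf-4* and *gln-2* were picked as examples after their values were seen. The largest rise was in *cbs-2*, the second cystathionine beta-synthase gene, with 38.2 to 155 normalised counts in wildtype and 637 to 754 in *hsf-1* OE (log2 fold change 2.85, edgeR). *cysl-4*, of the cysteine synthase family, rose from 26.2 to 63.0 to 150.2 to 192 (log2 fold change 2.03, edgeR). In neither did the groups overlap. How often groups separate in this way among all genes was not computed, here or for the 9 genes. Of the 12 transsulfuration and cysteine genes tested, 4 were higher and 1 was lower.

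Genes of glutamine use moved in both directions. *glna-1*, a glutaminase, rose from 107 to 148 normalised counts in wildtype to 290.4 to 505 in *hsf-1* OE (log2 fold change 1.59, edgeR). The glutamine synthetase genes *gln-5* and *gln-6* were the largest falls on the list, with log2 fold changes of -1.31 and -1.24 (edgeR). Another gene of that family, *gln-2*, rose (log2 fold change 1.36, SE 0.27, adjusted p = 0.00178, edgeR), and reads may be shared among these paralogs. Of the 16 tested genes of aspartate, glutamine and asparagine use, 6 were higher, 6 lower and 4 not called, beside 38.6% higher and 28.7% lower of all genes tested. *sams-5*, the remaining SAM synthetase gene, was higher with a log2 fold change of 1.24 (SE 0.20, adjusted p = 0.000677, edgeR), opposite in sign to *sams-3*. Its normalised counts were 639.5, 383, 723 and 848 in wildtype replicates 1 to 4, and 1543, 1314, 1445 and 1265 in *hsf-1* OE. Summed CPM of the sperm markers was 634, 393, 833 and 919 in the same wildtype libraries, and 1560, 1170, 1280 and 1070 in *hsf-1* OE. The part of sperm content in the levels of *sams-5*, *cbs-2* and *cysl-4* was not tested.

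Of the 9 folate cycle and glycine cleavage genes, 2 were higher and 2 lower, the lower ones being *dhfr-1*, dihydrofolate reductase, and *tyms-1*, thymidylate synthase, with log2 fold changes of -0.75 and -0.58 (edgeR), of which *tyms-1* lost its call with housekeeping scaling (-0.23). Neither partner of methionine synthase on the list was called: *mthf-1*, methylenetetrahydrofolate reductase, had a log2 fold change of -0.03 and *mtrr-1*, methionine synthase reductase, -0.18 (edgeR), and housekeeping scaling turned both positive (0.33, called, and 0.18). Of 11 SAM-using enzymes, 4 were higher and 4 lower. *pmt-1*, which methylates phosphoethanolamine on the way to phosphatidylcholine, was higher by 0.31 on the log2 scale (0.15 and not called with RLE), and the RNA methyltransferase gene *mett-10* was lower, at -0.62 (-0.26 and not called with housekeeping scaling). Of 16 vitamin B12 and propionate genes, 5 were higher and 5 lower. In this group and among the SAM-using enzymes, RLE normalization called more genes as lower and housekeeping scaling more as higher. Of all genes tested, 38.6% were higher and 28.7% lower. Of the 6 genes of amino acid stress signalling, 1 was higher and 3 lower, the lower ones including *gcn-2*, the kinase that senses uncharged tRNA (log2 fold change -0.36, edgeR, and -0.01 with housekeeping scaling). *atf-4*, the transcription factor downstream of it, had a log2 fold change of 0.14 that was not called, -0.03 with RLE and 0.50 with housekeeping scaling, which called it.

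In the double strain against *ubql-1(tm1574)*, 12 of the 76 tested list genes were higher and 24 lower (31 and 3 with housekeeping scaling), with log2 fold changes of 1.5 for *cbs-2*, 1.01 for *cysl-4* and 1.0 for *glna-1* (edgeR). These 36 calls of 76 stand beside 59.1% of all genes tested, 31.5% higher and 27.7% lower. Against wildtype, the double strain had 16 higher and 30 lower (38 and 9 with housekeeping scaling), led by *cbs-2* at 2.46, *cysl-4* at 1.86 and the glutaminase gene *glna-3* at 1.40, with *gln-5* at -1.04 and *gln-6* at -1.02 (edgeR). That was 46 of 76, and 70.4% of all genes tested were called, 37.1% higher and 33.3% lower. In *ubql-1(tm1574)* against wildtype 2 were higher and 5 lower (2 and 0 with housekeeping scaling, 6 and 9 with DESeq2). Of all genes tested there, edgeR called 8.31% and DESeq2 18%. Between the double strain and *hsf-1* OE 0 of 76 were called by edgeR, 4 had an unadjusted p under 0.05, DESeq2 called 1 and edgeR with the replicate block called 5. Of all genes tested, edgeR called 0.932%, DESeq2 2.89% and the block 6.39%. For the interaction 0 of 76 were called by edgeR, 13 had an unadjusted p under 0.05, DESeq2 called 2 and the replicate block 9. The shares of all genes called were 0.658% with edgeR, 5.54% with DESeq2 and 10.2% with the block.

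**Figure D4:**
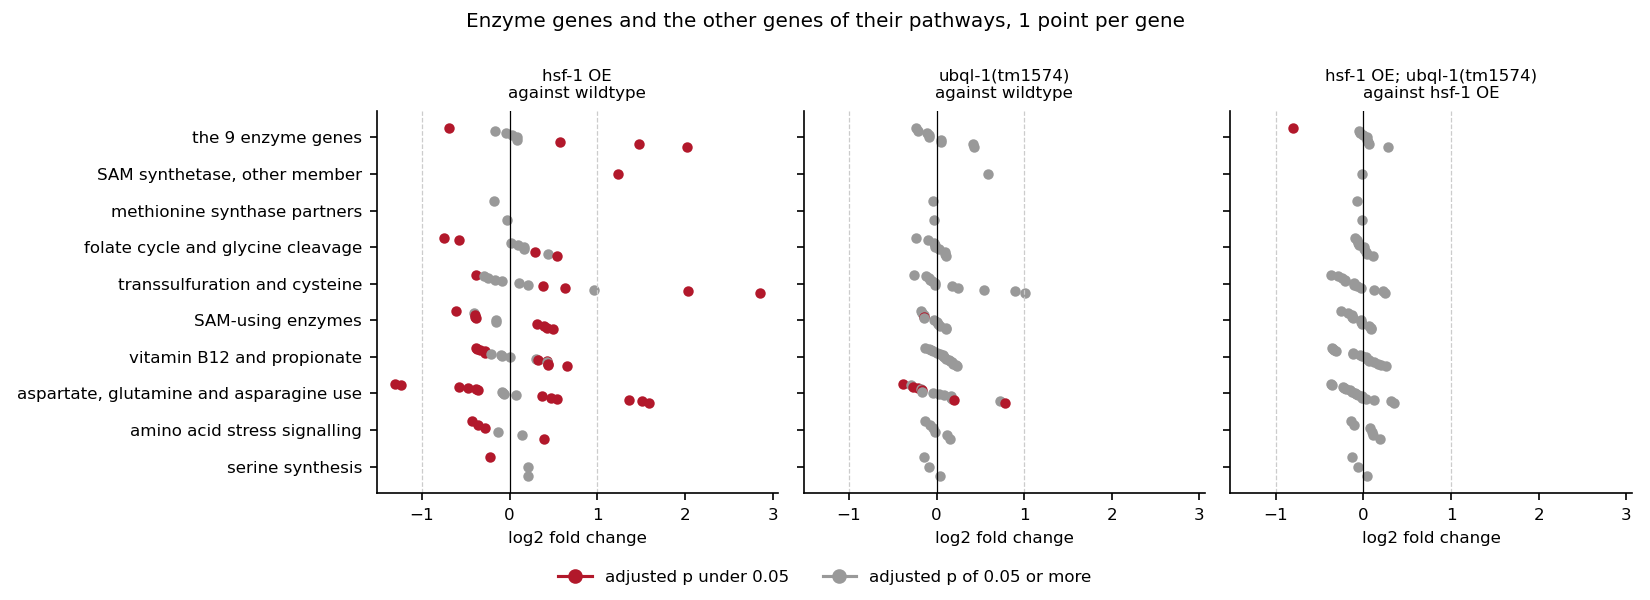
edgeR log2 fold changes of the 9 enzyme genes and of the other genes of their pathways, 1 point per gene, in 3 comparisons; red marks an adjusted p under 0.05 and the dashed lines log2 fold changes of -1 and 1. In *hsf-1* OE against wildtype 23 of the 76 list genes are higher and 22 lower, beside 38.6% and 28.7% of all genes tested. Between the double strain and *hsf-1* OE the only called point is *asns-2*, where 0.932% of all genes were called.

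The genes outside the 9 whose log2 CPM followed each most closely over the 16 libraries were taken among 9915 genes with a mean of at least 5 CPM. The points share the 4 genotypes, so the correlations are descriptions. For *asns-2* they were F56D2.5 (Pearson r = 0.95, Spearman rho = 0.87), the alpha-mannosidase gene *aman-3* (0.95 and 0.97) and the glutathione S-transferase gene *gst-36* (0.94 and 0.92). *asns-1* was followed by *idpc-1* (0.96 and 0.92), *amx-2* (0.96 and 0.94) and *pqn-74* (0.95 and 0.93). For *sams-3* the closest were *mafr-1* (0.98 and 0.95), *rpoa-12* (0.97 and 0.95) and *ciao-2B* (0.97 and 0.89). The nearest gene to *cbs-1*, ZK856.5, had r = 0.91 and rho = 0.92. Those nearest to *sams-1* (Y51A2D.18), *sams-4* (*coq-1*) and *ahcy-1* (*sta-2*) reached r = 0.85, 0.86 and 0.86, with rho of 0.72, 0.85 and 0.83. For *metr-1* and *mel-32* the nearest were DH11.2 and F13H10.8, at r = 0.89 and 0.91 and rho of 0.77 and 0.89.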

How the data were processed

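RNA-seq was carried out on 4 genotypes with 4 libraries each. The authors aligned reads and counted them per gene, with HISAT2 2.0.5, featureCounts 1.5.0-p3 and the WBcel235 build named in the submitters' processing notes, and deposited 3 tables of raw counts for 8 libraries each. The deposited tables also hold the authors' group means, fold changes and p-values; neither these nor 48 further columns of values for single libraries were used. The tables were joined into 23758 genes, with 17372 absent cells (4.57%) set to 0. Genes outside the annotation (125) held at most 0.045% of a library and entered library sizes and tests.

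Members were matched by sequence name, and 23180 identifiers matched WBcel235. Genes were tested with the quasi-likelihood method of edgeR 4.0.16 (with limma 3.58.1, under R 4.3.3), fitted to the 8 libraries compared or to all 16 for the interaction, two-sided, with TMM, filterByExpr and Benjamini-Hochberg adjustment over all genes tested. Normalised counts use TMM over 16 libraries and the fits of 8 libraries TMM over those 8. A fitted fold change can therefore differ in size from the listed counts, and a small one also in sign. Alternatives were RLE normalization, housekeeping scaling, no filter, a replicate block, 1 fit of all 16 libraries, DESeq2 1.42.0 and leaving out each library. The fits were also run on simulated data with few changed genes, split evenly between rises and falls. That setting does not cover comparisons where most genes were called, such as *hsf-1* OE against wildtype. Ratios used exact permutation tests on the log2 of the value plus 1 (scipy 1.17.1).

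The genes named were the 9, the 3 largest rises and falls of the pathway list past both thresholds in each comparison, and the 3 genes most correlated with each of the 9; examples outside this rule are named as such. Members and lists were chosen with earlier results of these data known. Same-numbered libraries deviated together, with a lowest correlation over 15645 genes of 0.15 for *ubql-1(tm1574)* and wildtype, 0.38 for the double strain and *hsf-1* OE, 0.13 for the double strain and *ubql-1(tm1574)* and 0.18 for it and wildtype. Their numbers were therefore taken as pairs, but only in the replicate block, and the main fits were unpaired. For *hsf-1* OE and wildtype the lowest correlation was 0.095, just under the limit of 0.1, so their numbers were not taken as pairs. The highest there was 0.26 and the mean between different numbers -0.06, so those libraries also tended to deviate together. Positions are those of the files; for *sams-3* and *cbs-1* the listed span is shorter than the listed gene length, which enters RPKM.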

Additional observations from a re-analysis of the deposited data

Results flagged for a closer look

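The fold change of *asns-2* for the *hsf-1* OE label differed between the wildtype and the *ubql-1(tm1574)* background by -1.19 on the log2 scale, by a test of the difference itself (edgeR interaction, adjusted p = 0.0304). This call was lost in 11 of 16 fits that left out a library (adjusted p 0.0175 to 0.0925). The label may not stand for the same *hsf-1* level in both backgrounds, as the interaction for *hsf-1* mRNA was 0.58 (adjusted p = 0.0986, edgeR).

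In 36 groups of 4 libraries, 1 per gene and genotype, 2 held a library far from the other 3. *metr-1* in *hsf-1* OE replicate 4 had 16697 normalised counts, with a gap that was 0.871 of the range of its group, and *mel-32* in replicate 1 of the double strain had 15677, with a gap of 0.879 of the range. Chance marks about 1 in 20 such groups.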

How the results depend on the processing

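Of the values of single genes, 293 of 315 kept their side of the threshold, and their direction where called, under other settings, and 480 of 504 when a library was left out. Most of these values had no call to lose. Called values lost their call in 4 of the former and 19 of the latter. Values without a call could change sign, as *mel-32* did in *hsf-1* OE with housekeeping scaling (0.19). Scaling to the housekeeping genes, which moved the median log2 fold change of all genes by 0.36 in *hsf-1* OE against wildtype, 0.29 in the double strain against *ubql-1(tm1574)*, 0.39 against wildtype and -0.15 for the interaction, raised the calls among the 9 genes from 4 to 7 against wildtype in both strains with the transgene, and those past the fold threshold from 1 to 3 in the double strain against *ubql-1(tm1574)*. It reversed *sams-1* in *hsf-1* OE (0.32), *mel-32* in the double strain against *ubql-1(tm1574)* (0.22), and *sams-4* (0.34) and *ahcy-1* (0.37) in the double strain against wildtype, each then called. The share of higher genes among all called rose with it from 57.3% to 80.5% in *hsf-1* OE, from 53.2% to 82.7% in the double strain against *ubql-1(tm1574)* and from 52.7% to 77.4% against wildtype. In *ubql-1(tm1574)* against wildtype 594 higher and 584 lower genes became 474 and 137 with it (854 and 61 in the fit of 16 libraries), and in the double strain against *hsf-1* OE 73 and 72 became 57 and 92. RLE normalization, 1 fit of all 16 libraries and DESeq2 left 0 genes past the fold threshold in the double strain against *ubql-1(tm1574)*, and leaving out single libraries gave 0 to 1. In *ubql-1(tm1574)* against wildtype, RLE, no filter, DESeq2 and the replicate block called 1 gene, *sams-3*, in place of 0 (leaving out libraries, 0 to 1). Leaving out libraries gave 0 to 1 calls in the double strain against *hsf-1* OE (0 past the fold threshold) and 0 to 1 for the interaction, with or without that threshold, and DESeq2 called 2 for the interaction. The replicate block also called *mel-32* in the double strain against wildtype (-0.20, adjusted p = 0.0128, edgeR), and changed no other call. In *hsf-1* OE against wildtype the numbers were not taken as pairs. There the block called 10000 genes in place of 9960, and the same number, 4, of the 9.

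Over all genes, calls in *ubql-1(tm1574)* against wildtype were 1178, with 4287 under the block, 2554 with DESeq2 and 611 with housekeeping scaling; omitting wildtype replicate 1, 2, 3 or 4 gave 195, 480, 326 or 1953, and omitting *ubql-1(tm1574)* replicate 1, 3 or 4 gave 188, 103 or 104. In the double strain against *hsf-1* OE they were 145, with 994 under the block, 449 with DESeq2 and 251 in the fit of 16 libraries, and 58 to 74 without *hsf-1* OE replicate 2 or 3 or double-strain replicate 2, 3 or 4. For the interaction they were 103, with 1597, 867 and, under housekeeping scaling, 159; they were 1659 without *hsf-1* OE replicate 1, 893 without wildtype replicate 4, and 39 to 61 without wildtype replicate 1, *ubql-1(tm1574)* replicate 3 or 4, *hsf-1* OE replicate 3 or double-strain replicate 2 or 3. The cause of these changes was not tested. *asns-1* had the fewest counts of the 9 genes.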
